A study of Mus musculus with 18 samples.

Results

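The aryl hydrocarbon receptor (AhR) pathway was followed through 5 genes chosen by symbol: the receptor gene Ahr, its partner Arnt, the feedback genes Tiparp and Ahrr, and the target gene Cyp1b1. Of these 5, 4 were analysed among 13043 genes, Cyp1b1 was not analysed here, and 3 passed the filter on low counts that left 10597 genes for testing; Ahrr did not. The genes were picked with their values in all 5 groups known, so their levels and differences are given as descriptions, without p-values.

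RNA was measured in 18 libraries of macrophages sorted from mouse brain 32 weeks after marrow transplantation. Every group came from lethally irradiated wild-type C57BL6/C recipients, and the transplanted marrow carried Ms4a3-Cre, R26-TdTomato and Cx3cr1-gfp. The groups were host microglia (no colour, 4 libraries), monocyte-derived microglia (GFP and TdTomato, 4), microglia derived from haematopoietic stem cells (HSC; GFP alone, 4), monocyte-derived leptomeningeal macrophages (4) and HSC-derived leptomeningeal macrophages (2). Leptomeningeal cells are those washed from the brain surface; microglia came from the tissue that remained, and actinomycin D was present throughout. Ms4a3-Cre is active in granulocyte-monocyte progenitors, so monocyte or HSC origin refers only to whether GFP-positive cells showed its reporter. Nothing in the labels ties each replicate to its own mouse, and p-values therefore measure the spread between samples, which may be technical.

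AhR is a transcription factor of the bHLH-PAS family. Without a ligand it is held in the cytoplasm by a complex built on the chaperone HSP90, and once it binds a ligand, such as a tryptophan metabolite or an environmental aromatic compound, it enters the nucleus, pairs with ARNT and binds DNA at xenobiotic response elements with the core GCGTG. Among its targets are cytochrome P450 genes and 2 feedback genes: AHRR competes for ARNT, and TIPARP, a mono-ADP-ribosyltransferase, modifies the receptor. In macrophages and other immune cells of the brain and of barrier tissues the pathway is known as a sensor of dietary, microbial and tryptophan-derived compounds.

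Library totals ran from 154727 to 2440234 counts, and 3 libraries held under 400000: HSC-derived microglia replicates 3 and 4 and HSC-derived leptomeningeal replicate 2. Levels are counts scaled to library size (CPM) after TMM normalisation, and a count of 3 in a library equals 1.05 to 23.1 CPM. The 8 microglia markers, P2ry12 and Tmem119 among them, summed to 19100 to 22000 CPM in host microglia, 9690 to 11800 in the donor-derived microglia and 2970 to 4970 in the leptomeningeal groups. The 8 border-associated macrophage markers, such as Mrc1 and Pf4, summed to 38.2 to 47.7 CPM in host microglia, 2170 to 3210 in donor-derived microglia and 5770 to 11300 in leptomeningeal macrophages. Between compartments 6 of these 8 were called higher in leptomeningeal macrophages for either origin, and 1 was called lower among monocyte-derived cells. Ms4a7 averaged 780 and 885 CPM in monocyte- and HSC-derived microglia, and 480 and 591 in the leptomeningeal groups. Clec12a averaged 345 and 459, and 370 and 380. Host libraries also held 2080 to 3530 CPM of 6 choroid plexus epithelium markers, against 6.31 to 482 elsewhere.

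Ahr (chr12:35497974-35535038, minus strand, GRCm38/mm10, GENCODE vM21), the receptor itself, was nearly undetected in host microglia and present in every donor-derived group. Host replicates 1, 2 and 3 had a count of 0, with exact Poisson 95% upper limits of 2.64, 1.68 and 1.3 CPM. Host replicate 4 had 2 counts, or 1.34 CPM. In monocyte-derived microglia the 4 libraries had 80, 55, 83 and 68 counts, or 46.1, 45.5, 58.2 and 54.3 CPM. All 4 stood far above the host libraries and close to each other. In HSC-derived microglia Ahr stood at 48.2, 49.5, 10.2 and 50.9 CPM, and the low value, in replicate 3, rested on 2 counts in a library of 264795 (exact Poisson 95% interval 1.24 to 37.0 CPM). Monocyte-derived leptomeningeal macrophages had 33.0, 31.8, 26.8 and 32.3 CPM, and HSC-derived ones 20.6 and 46.2 CPM from 12 and 6 counts.

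The mean Ahr level was 51.0 ± 6.21 CPM (SD, n = 4) in monocyte-derived microglia, 39.7 ± 19.7 (n = 4) in HSC-derived microglia, 33.4 ± 18.1 (n = 2) in HSC-derived leptomeningeal macrophages, 31.0 ± 2.85 (n = 4) in monocyte-derived leptomeningeal macrophages and 0.335 ± 0.67 (n = 4) in host microglia. Neighbours in this order overlapped except at the last step, where every host library lay below all others. Without the shallow libraries HSC-derived microglia averaged 48.8 ± 0.917 CPM (n = 2), next to the monocyte-derived value. Because the host total was 2 counts, the ratio of scaled counts to host is given with its exact interval: 202 (95% interval 55.4 to 1670) for monocyte-derived and 179 (48.1 to 1500) for HSC-derived microglia, covering counting error only. Both ratios share the host libraries. In bulk libraries fewer cells expressing a gene and less RNA per expressing cell cannot be told apart, here and for every gene below.

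Between origins, the fitted log2 difference of Ahr, monocyte minus HSC, was 0.21 ± 0.25 (SE) in microglia and 0.24 ± 0.43 in leptomeningeal macrophages, each smaller than its SE. In leptomeningeal macrophages the fit, which weights libraries by depth, and the plain means (31.0 and 33.4 CPM) differ in sign. By compartment, leptomeningeal minus microglia, it was -0.72 ± 0.21 among monocyte-derived cells, where the libraries of both groups did not overlap, and -0.75 ± 0.44 among HSC-derived cells, where they did. The HSC-derived value rested on leptomeningeal replicate 1 and was -0.01 without it; the leptomeningeal difference by origin then changed sign, to -0.49. Replicate 1 is the deeper library of that pair and has its lower Ahr level.

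**Figure D1:**
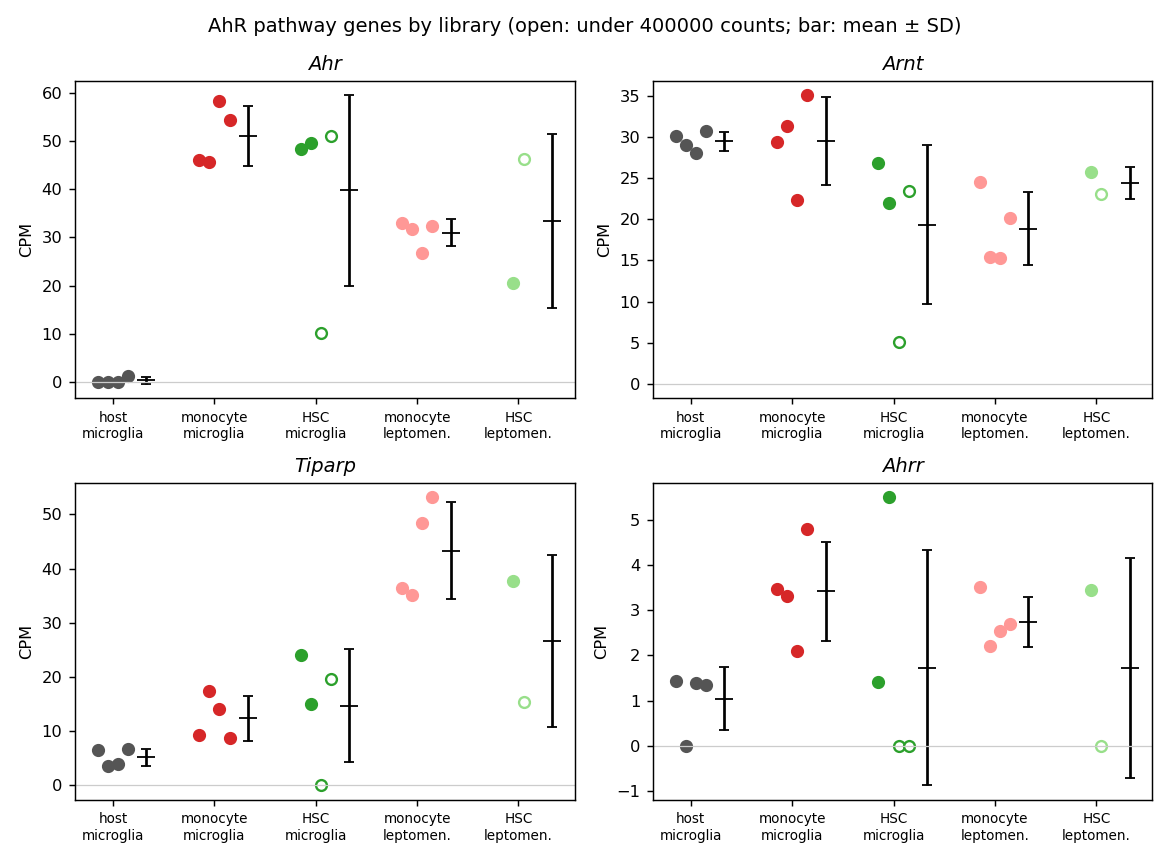
CPM of the 4 analysed genes in each library (points; open where the library held under 400000 counts) by group, with group mean ± SD as bars. Ahr is at 0 to 1.34 CPM in the 4 host libraries, and the mean of Tiparp is highest in monocyte-derived leptomeningeal macrophages.

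The lincRNA Gm48236 lies opposite the 5′ end of Ahr and was not analysed here, and whether counting used the strand is not given in the sources used here. A processed pseudogene, Gm42672, lies within Arnt on the same strand.

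Arnt (chr3:95434388-95497240, plus strand), the partner that AhR needs to bind DNA and that HIF proteins also use, was detected in every library, host microglia included. The host libraries had 30.1, 29.1, 28.1 and 30.8 CPM, and monocyte-derived microglia had 29.4, 31.4, 22.4 and 35.1 CPM. HSC-derived microglia had 26.9, 22, 5.12 and 23.5 CPM, again lowest in replicate 3, which had 1 count. Monocyte-derived leptomeningeal macrophages had 24.6, 15.4, 15.3 and 20.2 CPM, and the HSC-derived pair 25.8 and 23.1 CPM. Apart from that replicate every library lay between 15.3 and 35.1 CPM.

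In order of mean, Arnt stood at 29.6 ± 5.34 CPM in monocyte-derived microglia, 29.5 ± 1.18 in host microglia, 24.4 ± 1.88 in HSC-derived leptomeningeal macrophages, 19.4 ± 9.73 in HSC-derived microglia and 18.9 ± 4.45 in monocyte-derived leptomeningeal macrophages. Only host microglia and HSC-derived leptomeningeal macrophages, as neighbours in this order, did not overlap. Against host, the fitted log2 difference was 0.00 ± 0.19 in monocyte-derived and -0.42 ± 0.26 in HSC-derived microglia, the latter with no overlap between libraries. Leptomeningeal minus microglia, it was -0.63 ± 0.22 among monocyte-derived cells, whose ranges overlapped, and 0.20 ± 0.43 among HSC-derived cells.

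Tiparp (chr3:65528410-65555518, plus strand) and Ahrr (chr13:74211118-74292331, minus strand) are the feedback genes, and the stretches before their start sites are shown because both genes are induced through xenobiotic response elements. RefSeq promoters (GRCm38.p6; 250 bases before to 50 after a start site) were matched for 4 of the 5 genes. The Tiparp stretch is chr3:65528197-65528396, plus strand, positions -250 to -51 from the RefSeq start, and the Ahrr stretch is chr13:74292332-74292581, minus strand, positions -250 to -1. Capitals mark GCGTG, or CACGC where the motif is on the other strand.
Tiparp: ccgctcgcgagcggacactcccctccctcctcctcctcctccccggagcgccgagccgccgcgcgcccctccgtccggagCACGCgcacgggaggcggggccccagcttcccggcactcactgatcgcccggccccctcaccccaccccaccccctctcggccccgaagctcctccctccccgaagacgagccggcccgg
Ahrr: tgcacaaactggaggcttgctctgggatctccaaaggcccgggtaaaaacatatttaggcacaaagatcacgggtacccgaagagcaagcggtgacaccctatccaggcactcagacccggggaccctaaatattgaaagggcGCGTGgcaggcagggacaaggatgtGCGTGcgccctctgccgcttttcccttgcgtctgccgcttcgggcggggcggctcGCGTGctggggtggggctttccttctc

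The Tiparp promoter held GCGTG once, on the opposite strand at position -170. The Ahrr promoter held it 3 times, at -107, -82 and -27, and the last lay within the longer TNGCGTG. Arnt (at -29) and Cyp1b1 (at -76, opposite strand) held 1 copy each. Searching both strands, 32.4% of all 32851 promoters of this length held GCGTG, 3.91% held 3 or more copies and 5.07% held TNGCGTG. A match in these letters is not a measured binding site.

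By group mean Tiparp was lowest in host microglia and highest in leptomeningeal macrophages. The host libraries had 6.44, 3.64, 3.86 and 6.70 CPM. Monocyte-derived microglia had 9.22, 17.4, 14.0 and 8.78 CPM, all above the host range. HSC-derived microglia had 24.1, 15.1, 0 and 19.6 CPM, and the 0, in replicate 3, has an exact Poisson 95% upper limit of 18.9 CPM. Monocyte-derived leptomeningeal macrophages had 36.5, 35.1, 48.5 and 53.2 CPM, and HSC-derived ones 37.8 and 15.4 CPM. The lowest monocyte-derived leptomeningeal library was above every microglia library.

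The means were 43.3 ± 8.88 CPM in monocyte-derived leptomeningeal macrophages, 26.6 ± 15.8 in HSC-derived ones, 14.7 ± 10.5 in HSC-derived microglia, 12.3 ± 4.11 in monocyte-derived microglia and 5.16 ± 1.63 in host microglia, and of these neighbours only monocyte-derived and host microglia did not overlap. Without its shallow libraries HSC-derived microglia averaged 19.6 ± 6.34 CPM (n = 2). The log2 difference from host was 1.31 ± 0.35 in monocyte-derived and 1.81 ± 0.42 in HSC-derived microglia. Leptomeningeal minus microglia, it was 1.84 ± 0.26 among monocyte-derived and 0.92 ± 0.48 among HSC-derived cells; the second became -0.24 without HSC-derived leptomeningeal replicate 1. By origin, monocyte minus HSC, it was -0.50 ± 0.38 in microglia and 0.42 ± 0.40 in leptomeningeal macrophages, the second 1.60 without that library. A pseudogene opposite the 5′ end of Tiparp, 4931440P22Rik, averaged 5.57 ± 2.40 CPM in host, 8.72 ± 1.59 in monocyte-derived and 10.5 ± 8.03 in HSC-derived microglia, and 6.97 ± 2.18 in monocyte-derived and 9 ± 1.84 in HSC-derived leptomeningeal macrophages.

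Markers of T and NK cells, neutrophils and monocytes were higher in the same leptomeningeal libraries as Tiparp. Dendritic cell markers, Siglech included, summed lower there (468 to 831 CPM, against 996 to 1280 in donor-derived microglia). Of their 6 tested genes, 4 were called higher and 1 lower in monocyte-derived leptomeningeal macrophages than in microglia of that origin. The 8 measured T and NK cell markers summed to 14.7 to 28.8 CPM in host microglia, 73.8 to 82.7 in monocyte-derived microglia, 0 to 103 in HSC-derived microglia (Cd3g and Klrb1c at 0 in all 4), 226 to 513 in monocyte-derived and 177 to 313 in HSC-derived leptomeningeal macrophages. The 7 neutrophil markers were all at 0 in host microglia and summed to 11.5 to 55.1, 0 to 20.5, 1190 to 2750 and 100 to 280 CPM in the other groups in that order. In HSC-derived leptomeningeal macrophages most of that sum was Mmp9 (69.3 and 277 CPM), and Mmp8, Ngp and Camp were at 0; in HSC-derived microglia S100a9, Retnlg, Mmp8 and Camp were at 0. The 6 monocyte markers summed to 9.83 to 15.0, 55.9 to 89.4, 97.8 to 133, 634 to 916 and 323 to 569 CPM. From host to monocyte-derived microglia Ahr and Tiparp were higher together with the T and NK cell, neutrophil and monocyte sums. From there to monocyte-derived leptomeningeal macrophages those 3 sums and Tiparp were higher and Ahr was lower. The part of these cells in the levels of Ahr or Tiparp was not tested.

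**Figure D2:**
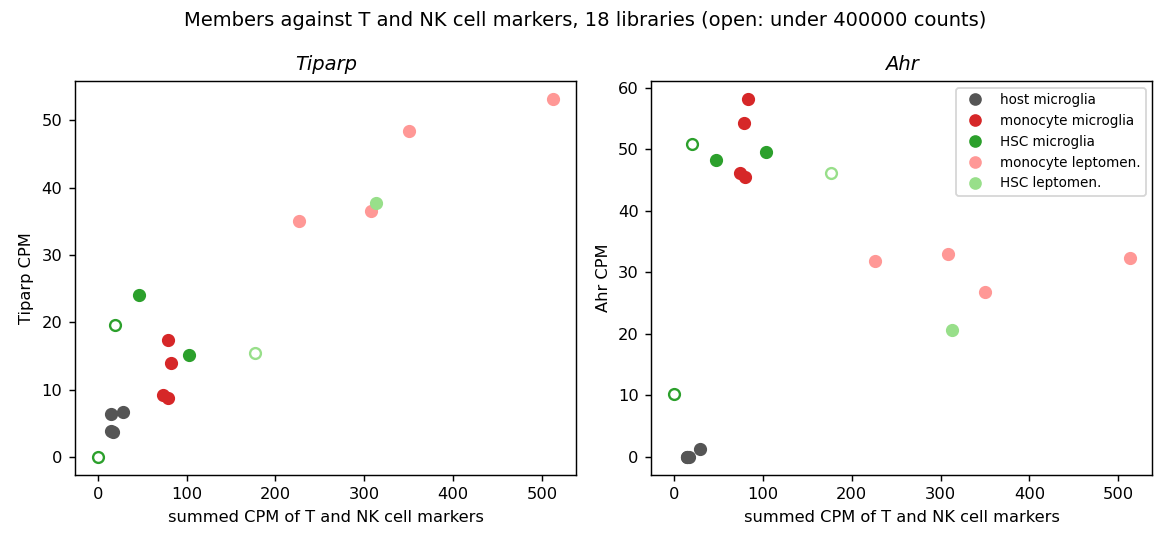
CPM of Tiparp (left) and Ahr (right) against the summed CPM of the 8 measured T and NK cell markers in 18 libraries, coloured by group (open points: under 400000 counts). In the 4 monocyte-derived leptomeningeal libraries, where the marker sum is 226 to 513 CPM, Tiparp is 35.1 to 53.2 CPM and Ahr 26.8 to 33.0 CPM; HSC-derived leptomeningeal replicate 1 lies beside them for Tiparp, at 37.8 CPM.

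Ahrr was at the edge of detection, with 0 to 6 counts per library. Host libraries had 2, 0, 4 and 2 counts and averaged 1.04 ± 0.697 CPM. Monocyte-derived microglia had 6, 4, 3 and 6 counts, or 3.46, 3.31, 2.10 and 4.79 CPM, all above the host libraries, the highest of which had 1.43 CPM. HSC-derived microglia had 1, 4, 0 and 0 counts and averaged 1.73 ± 2.60 CPM, the zeros being the shallow libraries. Monocyte-derived leptomeningeal macrophages had 5, 2, 4 and 4 counts (2.74 ± 0.557 CPM) and the HSC-derived pair 2 and 0 (1.72 ± 2.43 CPM). In order of mean all neighbouring groups overlapped, and differences among donor-derived groups were not detectable at this depth.

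The fit across all genes called 2 of the 3 members higher in monocyte-derived than in host microglia (Ahr and Tiparp), where it called 30.2% of all tested genes (15.1% higher and 15.1% lower). The libraries of these groups did not overlap for Ahr and Tiparp, as for 38.4% of all tested genes. They did not overlap for Ahrr either, which is not among the tested genes. In HSC-derived against host microglia the same 2 were called, beside 29.4% of all genes (16.3% higher and 13.1% lower), and Ahr and Arnt did not overlap, as for 27.1%. All 3 were called between monocyte-derived leptomeningeal macrophages and microglia, Tiparp higher and Ahr and Arnt lower, beside 35.3% (19% higher and 16.3% lower), and Ahr and Tiparp did not overlap, as for 37.2%. None was called between origins in microglia (1.89% of all genes, 0.123% higher and 1.76% lower) or in leptomeningeal macrophages (0.302%, 0.16% higher and 0.142% lower). None was called between compartments among HSC-derived cells (9.72%, 5.75% higher and 3.97% lower) or for the interaction of origin and compartment (0.0566%, all higher). No member's libraries were free of overlap in these comparisons, where 10.6%, 26.7% and 21.4% of all genes were. Since the genes were chosen on these values, nothing is read from these counts.

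**Figure D3:**
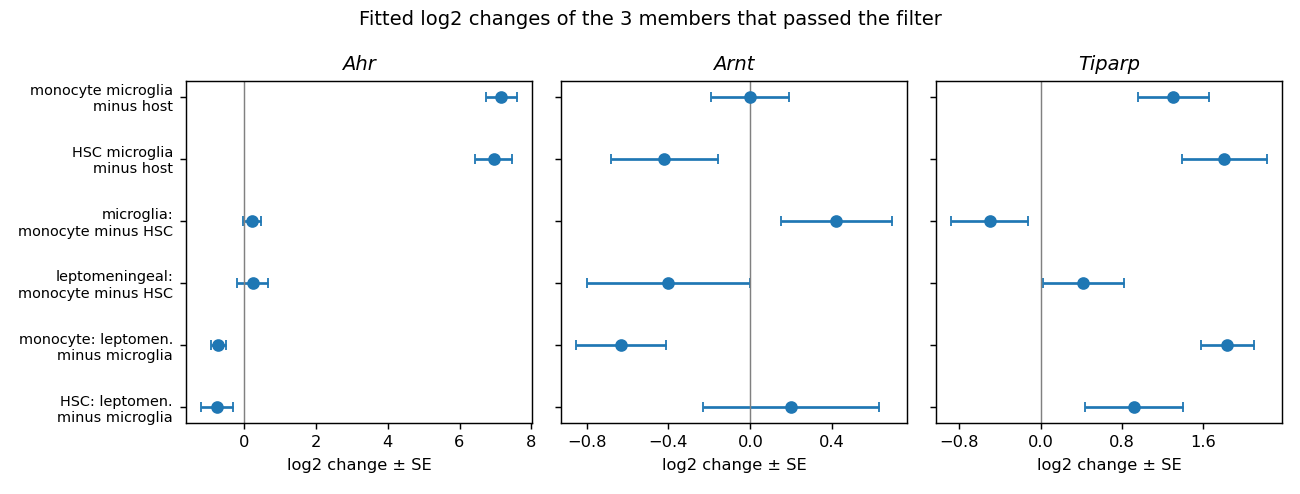
Fitted log2 differences ± SE of Ahr, Arnt and Tiparp in 6 comparisons of the 18 libraries; each panel has its own horizontal scale. Ahr differs most from host microglia (7.16 and 6.95), and Tiparp lies above 0 between leptomeningeal macrophages and microglia of monocyte origin (1.84). The 2 Ahr values against host rest on 2 host counts. Their fitted folds, 143 and 124, lie below the count ratios of 202 and 179, whose exact intervals are far wider than the plotted SE.

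The genes whose log2 CPM followed each member most closely over the 18 libraries were found among 4276 or 4277 genes that reached a group mean of 50 CPM. These correlations describe libraries that share group and depth. For Ahr they were Ms4a14 (r = 0.982), Ms4a6b (0.971), the proton-sensing receptor gene Gpr65 (0.965) and the interferon-inducible Ifi203 (0.964) and Mndal (0.961). Without the host libraries (n = 14) the same correlations were 0.814, 0.596, 0.535, 0.525 and 0.395. Ms4a14 had 0.764 CPM in host microglia and 142 in monocyte-derived microglia. For Tiparp the closest were the T cell receptor constant genes Trbc1 (0.945) and Trac (0.917), the kinase gene Pim1 (0.920), the scaffold gene Iqgap1 (0.904) and Mbd2 (0.902), and for Trbc1 and Trac r was 0.934 and 0.892 without host. For Arnt they were the tubulin acetyltransferase gene Atat1 (0.919), Maml2 (0.914), Skiv2l (0.909), Mfsd14a (0.907) and Rhot1 (0.902). Between members, r of Ahr and Tiparp was 0.56 over 18 libraries and 0.29 over the 14 donor-derived ones, and -0.82 over the 11 of these above 400000 counts.

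The wider pathway was read from 7 lists of 99 genes, of which 71 were analysed and 67 tested. The lists were the chaperone complex, other bHLH-PAS and PAS genes, AhR cofactors, AhR targets and AhR ligand metabolism. The rest were the PARP family with Macrod1 and Macrod2, and P450 enzymes with their electron-transfer partners and Hmox1. In monocyte-derived against host microglia 21 of the 67 rose and 9 fell, 44.8% against 30.2% of all genes, with a median log2 change of 0.22 against 0.01. In HSC-derived against host microglia 20 rose and 8 fell (41.8% against 29.4%), with a median of 0.02 against 0; scaled by library size alone the split turned, to 10 higher and 13 lower, and that of all genes from 1723 and 1391 to 1192 and 2546. Both comparisons use the same host libraries. The lists were chosen with earlier results of these data known. Shares above those of all genes, here and below, are therefore not read as enrichment.

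Among 20 listed AhR targets 9 were tested; Cyp1a1, Cyp1a2 and Nqo1 were among those not analysed here. Against host, 4 rose and 4 fell in each donor-derived microglia group (88.9%, against 30.2% of all genes in monocyte-derived and 29.4% in HSC-derived cells), so the targets did not move in 1 direction. Il10, the anti-inflammatory cytokine gene, had 1 count over all host libraries, against a mean of 5.73 ± 1.84 CPM (n = 4) in monocyte-derived and 5.47 ± 3.96 (n = 4) in HSC-derived microglia, ratios of 45.2 (95% interval 7.55 to 1840) and 54.8 (8.23 to 2330), with adjusted p = 5.14e-06 and 4.84e-05. Ptgs2, which encodes the prostaglandin synthase COX-2, stood at 2.01 to 3.18 CPM in host libraries, 25.9 to 33.9 in monocyte-derived and 30.7 to 82.2 in HSC-derived microglia, log2 changes of 3.28 ± 0.43 (adjusted p = 4.02e-06) and 4.05 ± 0.47 (8.65e-07). Cdkn1b, a cell cycle inhibitor gene, and Nfe2l2, which encodes the oxidative stress regulator NRF2, also rose in both, though Nfe2l2 in HSC-derived microglia was not called with library size alone (adjusted p = 0.0738). Tgfa, an EGF receptor ligand gene, had 33.7 to 37.5 CPM in host libraries and 5.12 to 14.2 in the donor-derived microglia, and fell by 2.13 and 1.62 on the log2 scale (adjusted p = 6.96e-08 and 0.000281). Abcg2, Hes1 and Vegfb were also lower in both. Promoters of 6 of the 9 were matched, and 5 of their 8 windows (62.5%) held GCGTG, beside 32.4% of all promoters. Abcg2 has several of these windows, so the share is of windows and not of genes.

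Genes listed under AhR ligand metabolism gave 2 rises and no fall among 7 tested in each comparison with host (28.6%, near the 30.2% and 29.4% of all genes). The list mixes genes that make, convert and take up such compounds, so its rises are not read as more ligand. Il4i1, an amino acid oxidase whose products activate AhR, had 16.8 ± 4.01 CPM in host microglia, 27.9 ± 3.01 in monocyte-derived (log2 0.73 ± 0.20, adjusted p = 0.00594) and 41.2 ± 6.65 in HSC-derived microglia (1.26 ± 0.24, 0.00011). Kmo, the kynurenine 3-monooxygenase gene, had no count in the host libraries; monocyte-derived microglia were at least 2.82-fold higher (adjusted p = 0.0141; 0.0642 without replicate 2 of that group) and HSC-derived at least 14.0-fold higher (5.58e-05), taking 3 counts over the host group as the floor. Each of these groups also had a library without a Kmo count. Ido1, Ido2 and Tdo2, the first enzymes of that route, were not analysed here.

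Of 13 tested P450 enzymes and partners, 5 rose and 2 fell in monocyte-derived microglia and 5 rose in HSC-derived microglia, against host (53.8% and 38.5%, beside 30.2% and 29.4% of all genes). Cyp4f18, a leukotriene hydroxylase gene of myeloid cells, went from 8.11 ± 3.03 CPM to 105 ± 8.83 and 126 ± 13.3 (log2 3.61 ± 0.20 and 3.86 ± 0.21, adjusted p = 7.53e-17 and 1.94e-16). Cyp27a1, the sterol 27-hydroxylase gene, went from 72.5 ± 6.88 CPM to 244 ± 15.5 and 220 ± 51.3 (adjusted p = 7.56e-12 and 2.84e-10), and Cyp4f16 rose by 1.46 and 1.63 on the log2 scale. The list of the PARP family of Tiparp also holds Macrod1, which is not a PARP gene. Of its 15 tested genes, 3 rose and 1 fell in monocyte-derived microglia (26.7%, below the 30.2% of all genes). In HSC-derived microglia 3 rose, Parp11, Parp14 and Macrod1 (20%, below the 29.4% of all genes). With library size alone the calls of Parp14 and Macrod1 there were lost (adjusted p = 0.0701 and 0.0756). Parp11, a mono-ADP-ribosyltransferase gene, went from 16.3 ± 0.838 CPM to 33.7 ± 1.81 and 37.1 ± 7.18 (adjusted p = 0.000147 and 0.00106).

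Of the 6 genes of the complex that holds or exports AhR, 1 rose and 1 fell in each comparison with host (33.3%, near the 30.2% and 29.4% of all genes): Xpo1, the nuclear exporter, rose (log2 1.21 ± 0.17 and 0.97 ± 0.21) and Src, the kinase in that complex, fell by 0.58 and 1.21. The fall of Src in monocyte-derived microglia was not called by DESeq2 (adjusted p = 0.074) or when any of host replicates 2 and 3 or monocyte-derived replicates 1, 2 and 3 was left out (0.055 to 0.211). Of 12 cofactors 3 rose and 1 fell in monocyte-derived and 3 rose and 3 fell in HSC-derived microglia (33.3% and 50%); Klf6 and Ncoa1 rose and Nrip1 fell in both. Among 5 other bHLH-PAS and PAS genes 3 rose in monocyte-derived and 2 in HSC-derived microglia (60% and 40%). Per1 and Arntl, a core clock gene, rose in both, Arntl from 13.1 ± 1.15 CPM to 29.1 ± 2.61 and 24.6 ± 3.67. The call of Per1 in HSC-derived microglia was lost with library size alone (adjusted p = 0.121). In HSC-derived microglia the calls of Klf6, Ncoa1 and Arntl were lost when libraries were scaled by size alone (adjusted p = 0.114, 0.209 and 0.0766), as were that of Ncoa1 without HSC-derived replicate 2 (0.0841) and that of Arntl without replicate 1 (0.062).

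**Figure D4:**
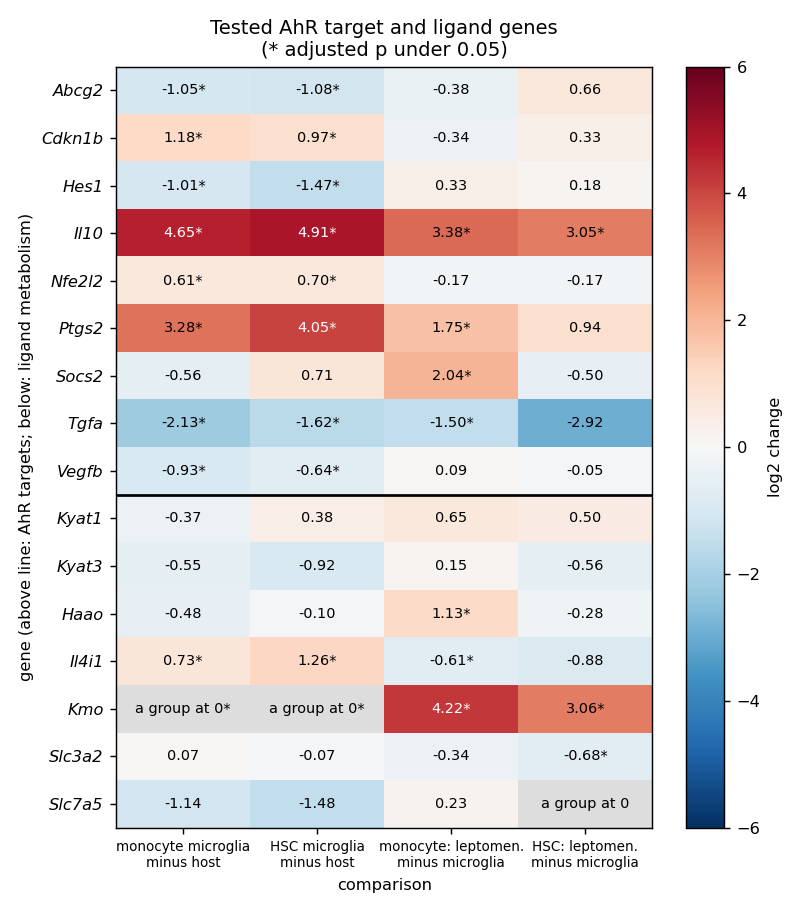
Log2 changes of the 9 tested AhR targets (above the line) and 7 tested ligand-metabolism genes (below) in 4 comparisons; an asterisk marks an adjusted p under 0.05, and grey cells, where a group had no count, carry no fold. Il10 and Kmo rose in all 4, while Abcg2, Hes1, Tgfa and Vegfb fell in both comparisons with host.

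From microglia to leptomeningeal macrophages of monocyte origin, 21 of the 67 rose and 10 fell (46.3% against 35.3% of all genes; median log2 change 0.09 against -0.04). Scaled by library size alone the split turned, to 12 and 22, and that of all genes from 2012 and 1724 to 1317 and 3335. Il10 rose from 5.73 ± 1.84 to 60.5 ± 13.2 CPM (log2 3.38 ± 0.28, adjusted p = 1.61e-11) and Kmo from 1.12 ± 1.08 to 22 ± 4.44 (4.22 ± 0.47, 1.86e-08). Ptgs2 rose by 1.75 ± 0.27 to 96.9 ± 36.5 CPM, and Klf6, a transcription factor reported to partner AhR, from 112 ± 11.3 to 377 ± 50.8 CPM (adjusted p = 2.61e-11). Hsp90ab1, the HSP90 chaperone gene, rose from 662 ± 28.3 to 1220 ± 179 CPM (adjusted p = 3.66e-05), and Src and Tgfa fell by 1.17 and 1.5 on the log2 scale. Il4i1 fell by 0.61 (adjusted p = 0.024), a call lost without any of monocyte-derived microglia replicates 1 and 3 or leptomeningeal replicates 2, 3 and 4 (0.0508 to 0.0859). The neutrophil, monocyte and T cell marker sums given above moved with these genes, and their part was not tested.

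Among HSC-derived cells the same compartment comparison called 5 of the 67 higher and 1 lower (8.96% against 9.72% of all genes). Klf6 (log2 1.31 ± 0.21, adjusted p = 3.62e-05), Il10 (3.05 ± 0.49, 3.04e-05), Kmo (3.06 ± 0.56, 0.000273), Cyb5a (0.86 ± 0.19, 0.00202) and Cyb5r3 (1.27 ± 0.37, 0.0213) rose, and Slc3a2, a subunit of the amino acid carrier that takes up tryptophan and kynurenine, fell by 0.68 (0.0381). Without leptomeningeal replicate 1, which leaves 1 library of 154727 counts that is assumed to vary like the other groups, the 5 log2 changes were 1.09, 1.66, 2.75, 0.88 and 1.65 in the same order and none was called (adjusted p 0.0552 to 0.41), and leaving out replicate 2 ended the fall of Slc3a2 (0.437) and the rise of Cyb5r3 (0.0864). Leaving out HSC-derived microglia replicate 1 also ended the calls of Cyb5r3 (0.101) and Slc3a2 (0.0845), and replicate 2 that of Slc3a2 (0.0895). Between origins, none of the 67 was called in microglia or in leptomeningeal macrophages by edgeR or by DESeq2, where 8 and 6 had an unadjusted p under 0.05. The interaction of origin with compartment called none by either tool, with 3 under 0.05 unadjusted.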

How the data were processed

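Bulk MARS-seq, a 3′ method that counts unique molecular identifiers (UMIs), was used per the labels' protocols, with up to 100000 sorted cells per library. The authors deposited raw UMI counts per gene, on build mm10 per the submitters' processing notes; no aligner, counter or filter is given in the sources used here. Of 20 raw columns, 2 matched no labelled sample and were not used.

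Counts were filtered with filterByExpr, scaled by TMM and fitted over 18 libraries in 1 quasi-likelihood model with robust dispersion (edgeR 4.0.16, limma 3.58.1, R 4.3.3), and 7 contrasts were tested two-sided at 0.05 after Benjamini-Hochberg adjustment over the genes that passed. "Rose" and "fell" mean past it. SE is the log2 change divided by the root of F. Intervals and floors cover counting error only. Alternatives were DESeq2 1.42.0, other scaling, no filter, a replicate block, and leaving out libraries. The members and lists were chosen with earlier results of these data known. Named beside the members were up to 4 called genes per list and comparison with the smallest p, and the 5 genes most correlated with each member; a few other listed genes were added after their values were seen. No 2 libraries of a group were alike within sampling noise. The values of 1 listed gene are not reported here.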

Additional observations from a re-analysis of the deposited data

Results flagged for a closer look

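Of 16 sets of 4 libraries examined (4 genes in the 4 groups of that size), 3 held a library set apart by Dixon's ratio of gap to range, where chance gives about 1 in 20. Ahr in host microglia replicate 4 was 1.34 CPM, from 2 counts, against 0 in the other libraries, and any count in 1 of 4 libraries gives this ratio its highest value. Its exact Poisson 95% interval, 0.162 to 4.84 CPM, overlaps those of the zeros, whose upper limits are 1.3 to 2.64 CPM. Counting error thus does not separate them. Ahr in HSC-derived microglia replicate 3 was 10.2 CPM, against 48.2 to 50.9 in the others. Ahrr in host microglia replicate 2 was 0, against 1.34 to 1.43 CPM in the others. That 0 has an exact Poisson upper limit of 1.68 CPM, above the other values.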

How the results depend on the processing

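Of 504 alternative values for Ahr, Arnt and Tiparp, 496 moved by less than the replicate spread, an SD of 0.6, 0.5 and 0.96 on the log2 scale in that order. Several differences given above are smaller than this spread, so a value could change sign and still be among the 496. Arnt between HSC-derived compartments, for example, ranged from -0.01 to 0.39 when single libraries were left out. Without host replicate 4, which holds both host counts of Ahr, the host group had no Ahr count. The fitted log2 differences of Ahr from host, then 8.92 and 8.70, depend on how the fit treats zeros and are not measured folds. The other 6 values that moved all left out HSC-derived leptomeningeal replicate 1, among them the interaction values of Ahr (-0.72) and Tiparp (2.07). Of 74 named pathway changes 27 lost their call under at least 1 alternative and none reversed. Clock, Parp9 and Src in monocyte-derived microglia and Macrod1 in HSC-derived microglia, all against host, lost it under 6 or more. Among calls against host, Per1 in monocyte-derived microglia was lost without host replicate 3 or monocyte-derived replicates 2 or 3 (adjusted p 0.0622 to 0.0764), Parp16 without replicate 3 of either group (0.0575 and 0.0675), and Relb in HSC-derived microglia without replicate 1 (0.0754) or the shallow libraries (0.0636).

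Between origins in microglia, all genes called were 200, against 124 with library size alone, 50 without the 3 shallow libraries, 535 with DESeq2 and 31 to 555 leaving out each library; pathway genes called were 0 to 1. Between origins in leptomeningeal macrophages they were 32, against 72 without the shallow libraries, 78 with DESeq2 and 12 to 90 leaving out each library; pathway genes called were 0 to 2. Between HSC-derived compartments, pathway genes called were 6, against 10 without the shallow libraries and 2 to 8 leaving out each library, and all genes 1030, against 366 to 1242; the lowest were without leptomeningeal replicate 1. The interaction called 6 genes, 1 with library size alone, 49 with DESeq2 and 0 to 40 leaving out each library. Library size alone gave 10 higher and 13 lower pathway genes for HSC-derived against host microglia, in place of 20 and 8 (all genes 1192 and 2546, in place of 1723 and 1391), 5 and 0 between HSC-derived compartments, and a median of all genes of -0.28 and -0.34 for HSC-derived against host microglia and between monocyte-derived compartments, in place of 0 and -0.04. Without the shallow libraries the pathway genes called between monocyte-derived compartments split 21 higher and 16 lower. The cause was not tested.

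Replicate numbers are shared between groups. Deviations of same-numbered libraries had a median r of -5e-04 (32 pairs, r -0.321 to 0.323, 1 over 0.1), against -0.002 for other pairs. Both extremes involve the HSC-derived leptomeningeal pair, whose 2 deviations mirror each other. Of the libraries, 3 correlated best with their own number. Samples from the same mouse need not deviate together, so these values cannot show whether same-numbered libraries share a mouse. With the replicate block, pathway genes called were 27, 27, 0, 0, 29, 6 and 0, in place of 30, 28, 0, 0, 31, 6 and 0. Depth limits Ahrr and the HSC-derived leptomeningeal group most, where 3 counts equal up to 23.1 CPM.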
